A study of Mus musculus and Homo sapiens with 14 samples.

Results

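Protein folding in the endoplasmic reticulum (ER) and the unfolded protein response were followed through 35 genes, chosen by symbol and grouped here by role. The set holds 11 chaperones and co-chaperones, 5 disulfide enzymes, the 2 lectin chaperones, 4 genes of the sensing arm, 9 genes of ER-associated degradation (ERAD) and 4 genes of translocation, vesicle transport or calcium handling. All 35 symbols were found among 20682 rows in the mouse tables, and all 35 in upper case among 19166 rows in the MOLM-13 table.

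The 14 libraries were made from polyA-selected RNA of leukemia cell lines, with 7 groups of 2 libraries each. MOLM-13, a human acute myeloid leukemia line carrying an MLL-AF9 fusion and here also an empty vector, was treated with 250 nM of the salt-inducible kinase inhibitor YKL-05-099 or with 0.1% DMSO, its vehicle. RN2, a mouse leukemia line driven by MLL-AF9 and mutant Nras, was treated with 350 nM YKL-05-099 or with 0.1% DMSO, and both treatments lasted 2 h. The titles of the RN2 samples also carry the word empty, although their cell line label names no vector. RN2c, the Cas9-expressing form of RN2, was sequenced on day 2 after infection with a guide against Sik3 (sgSik3, guides e1 and e3), a guide against Mef2c (sgMef2c, guides 1 and 2) or a guide against the Rosa26 locus (sgRosa26), which is a control cut. Every RN2c group thus carried Cas9 and an infected guide, each knockout group held 1 library per guide, and the labels do not say whether infected cells were selected. The same sgRosa26 libraries served both knockouts, so the 2 knockout comparisons are not independent.

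Proteins enter the ER through the SEC61 channel and are folded there by HSPA5 (BiP), HSP90B1 and their co-chaperones, by disulfide enzymes of the PDI family and by the lectins calreticulin and calnexin. Proteins that fail to fold are extracted by ERAD and degraded. When unfolded proteins build up, 3 membrane sensors respond: IRE1 (gene Ern1) splices the messenger of the factor XBP1, PERK (gene Eif2ak3) slows translation, and ATF6 is cut to release a transcription factor, so that chaperone and ERAD genes are induced. Spliced and unspliced Xbp1 cannot be told apart in these gene-level values.

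The targeted genes were read first. Sik3 had normalized values of 1219 and 1169 in the sgSik3 libraries, against 1939 and 1878 in the sgRosa26 libraries, and Mef2c had 3892 and 4021 in the sgMef2c libraries, against 8395 and 8369 in the sgRosa26 libraries. Both fell in their own knockout, with log2 fold changes of -0.68 ± 0.05 (SE) for Sik3 and -1.08 ± 0.04 for Mef2c (limma, adjusted p = 5.72e-06 and 7.97e-05). Mef2c also fell with sgSik3, with 7400 and 7423, against 7986 and 7982 with sgRosa26 (-0.11 ± 0.03, limma, adjusted p = 0.0167). Sik3 was not called with sgMef2c (0.09 ± 0.04). The leukemia identity genes Hoxa9, Hoxa10, Meis1, Ptprc, Spi1, Myb and Cd33 had normalized values of 593 or above in every library, as did Kit in mouse cells, whereas KIT was between 19.7 and 26.2 in MOLM-13. Of these 8 genes, 6 rose with sgSik3 and 4 with sgMef2c, where 23.9% and 16.3% of all genes rose, and 0 fell. Their summed value was 72640 to 73090 with sgSik3 against 52250 to 55250 with sgRosa26. With sgMef2c it was 67940 to 71630, against 54930 to 57930 with sgRosa26. Recovered reads per library ranged from 13961461 to 24275290. Granulocyte markers moved with the knockouts: 9 of 10 rose with sgSik3 and 9 of 10 with sgMef2c, and their summed value was 203200 to 216500 with sgSik3 against 109500 to 117500 with sgRosa26, and 234900 to 318900 with sgMef2c against 115100 to 123100 with sgRosa26. Of 6 monocyte and macrophage markers tested, 4 fell and 1 rose with sgSik3 and 5 fell with sgMef2c. Their summed value was 9353 to 9506 with sgSik3 against 11680 to 13280 with sgRosa26, and 7319 to 8009 with sgMef2c against 12270 to 13930 with sgRosa26. In the same libraries, the summed value of 5 plasma cell markers was at most 17.8, and Hbb-bt, Hba-a1, Cd3e, Cd3g and Ms4a1 were at 0. Of the lymphocyte list only Nkg7 passed the filter on low values, and it rose in both knockouts, so that the list summed to 192 to 218 with sgSik3 against 75.3 to 88.8 with sgRosa26 and to 244 to 264 with sgMef2c against 79.1 to 93.1 with sgRosa26. The part of these markers in the results below was not tested. In bulk RNA, a change in the share of a cell type cannot be told apart from a change in RNA per cell.

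The promoters are shown because several folding genes share a known element, and most of those fell with sgSik3. The ER stress response element (ERSE) binds NF-Y and ATF6 or XBP1, and was searched on both strands as the letters CCAAT and CCACG with 9 bases of any kind between them. The related ERSE-II was searched as ATTGG and CCACG with 1 base of any kind between them, and the unfolded protein response element as TGACGTGG. The motifs share the letters CCACG, but no site of a member matched more than 1 motif. RefSeq promoters (GRCm38.p6, 250 bases before to 50 bases after the start site) were matched for 29 of 35 members, and Hyou1, Atf6, Manf, Sec61a1, Hspa13 and Derl1 had no entry. An exact ERSE was present in 9 of 29 members (31%), against 37 of 27025 gene symbols with a promoter (0.137%). The members were chosen as genes of the response that this element serves, so the larger share among them is no finding of these data. ERSE-II was present in Herpud1 and Dnajb11 (0.0444% of symbols), and the unfolded protein response element in Txndc5 and Sec24d (0.714% of symbols). The 29 members had 32 promoters, and a symbol was counted if any of its promoters matched. The other promoters of Txndc5 did not hold the element. A match is a run of letters and does not show binding. The sites are given 5′ to 3′ on the strand on which the motif reads, with the fixed letters in capitals, first the ERSE of 8 members and then, for Dnajb11, the ERSE-II.
Hspa5, chr2:34772025-34772043: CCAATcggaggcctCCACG
Hsp90b1 nearer site, chr10:86705533-86705551: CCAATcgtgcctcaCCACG
Hsp90b1 farther site, chr10:86705638-86705656: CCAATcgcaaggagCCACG
Dnajc3, chr14:118937827-118937845: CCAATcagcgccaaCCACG
Creld2, chr15:88819520-88819538: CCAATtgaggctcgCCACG
Pdia6, chr12:17266491-17266509: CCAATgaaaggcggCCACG
Canx, chr11:50325800-50325818: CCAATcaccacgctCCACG
Syvn1, chr19:6046532-6046550: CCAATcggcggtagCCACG
Derl3, chr10:75893242-75893260: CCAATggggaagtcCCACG
Dnajb11, chr16:22857852-22857862: ATTGGcCCACG

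Hspa5, Pdia6 and Hsp90b1 are abundant members that fell with sgSik3 and carry the element. The fall of Hsp90b1 was small (-0.09, limma, adjusted p = 0.0414). Calr, the remaining ERSE carrier, also fell with sgSik3 (-0.25), and the letters of its site are not printed here. The 250 bases before the start sites of Hspa5, Pdia6 and Hsp90b1 are shown in gene orientation, with the fixed letters of each ERSE in capitals. The nearer site of Hsp90b1 lies on the opposite strand and therefore begins with CGTGG and ends with ATTGG.
Hspa5, chr2:34771840-34772089, plus strand: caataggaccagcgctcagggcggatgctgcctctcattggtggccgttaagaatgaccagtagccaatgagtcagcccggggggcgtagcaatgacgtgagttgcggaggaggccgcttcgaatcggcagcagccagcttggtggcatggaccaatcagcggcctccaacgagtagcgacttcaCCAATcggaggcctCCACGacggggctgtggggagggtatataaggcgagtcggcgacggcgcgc
Pdia6, chr12:17266339-17266588, plus strand: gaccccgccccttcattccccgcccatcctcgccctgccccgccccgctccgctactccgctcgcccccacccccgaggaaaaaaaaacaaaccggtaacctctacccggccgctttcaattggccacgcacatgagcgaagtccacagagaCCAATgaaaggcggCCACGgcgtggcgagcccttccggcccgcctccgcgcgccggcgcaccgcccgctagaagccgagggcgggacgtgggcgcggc
Hsp90b1, chr10:86705445-86705694, minus strand: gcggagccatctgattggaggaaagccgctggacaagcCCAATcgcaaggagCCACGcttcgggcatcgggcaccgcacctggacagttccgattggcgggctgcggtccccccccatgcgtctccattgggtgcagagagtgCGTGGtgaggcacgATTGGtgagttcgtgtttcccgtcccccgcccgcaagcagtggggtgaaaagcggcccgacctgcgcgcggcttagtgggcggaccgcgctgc

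**Figure D1:**
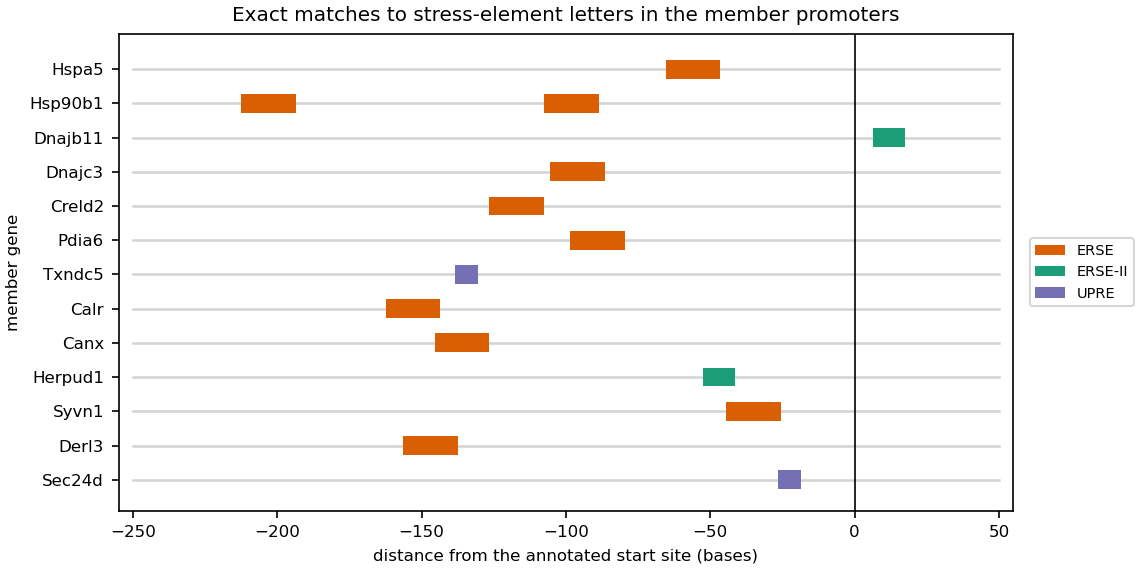
Position of exact ERSE (orange), ERSE-II (green) and unfolded protein response element (purple) matches along each matched member promoter, in bases from the annotated start site at 0; grey lines mark the window searched. The ERSE of Hspa5 lies 65 to 47 bases before the start, Hsp90b1 has 2 sites, and the ERSE-II of Dnajb11 lies just after the start.

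Read per length of exon (reads per kb of merged exon per 1000000 recovered reads), the folding genes dominated the set in the mouse control libraries. Calr had 753 and 804 in the sgRosa26 libraries, P4hb, a protein disulfide isomerase, had 405 and 407, and Hsp90b1 had 317 and 309. Hspa5 had 297 and 282, close below Hsp90b1, and Pdia3 had 256 and 253. Calr was above all other members in both libraries, and these leading genes are all chaperones or disulfide enzymes. The highest ERAD gene was Edem1, which directs misfolded glycoproteins to degradation, with 189 and 203, and the other ERAD genes lay at 65.5 or below. Of the sensing arm, Xbp1 had 51.3 and 49.6, Atf6 had 20.6 and 19.5, Ern1 had 19.9 and 19.9, and Eif2ak3 had 8.15 and 7.89. Atf6 and Ern1 lay close together, and Xbp1 stood above the other 3. Derl3, an ERAD gene, was the lowest at 0.324 and 0.0731 and failed the filter on low values in every mouse comparison, so 34 members were tested there. In the RN2 libraries treated with DMSO, the same 5 genes led, with Calr at 868 and 878.

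**Figure D2:**
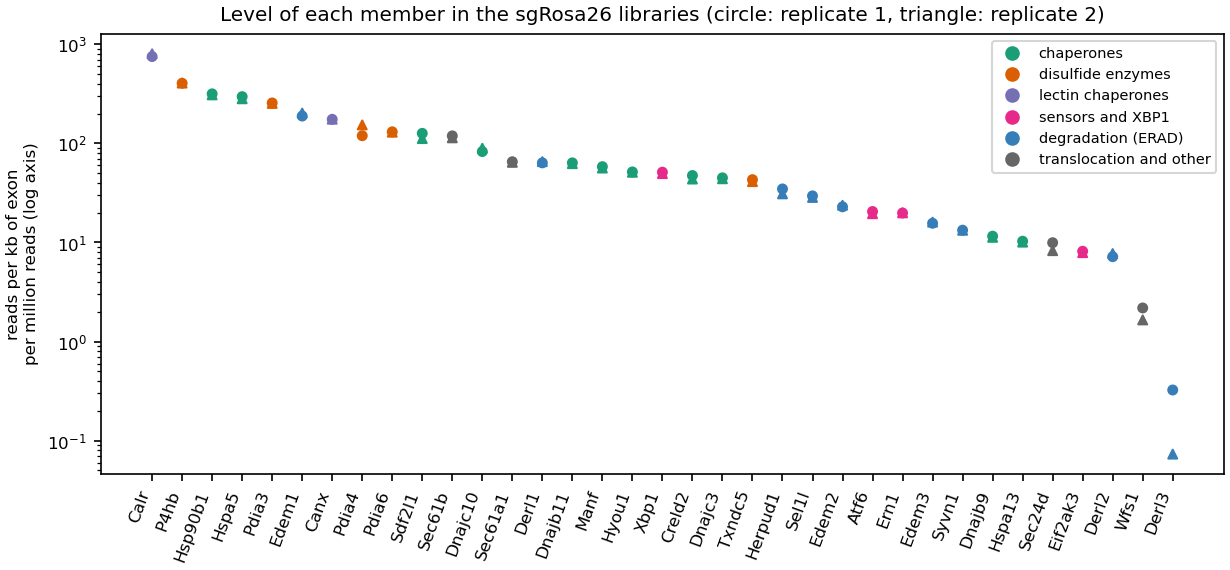
Level of each of the 35 members in the sgRosa26 libraries, in reads per kb of exon per 1000000 reads on a log axis, ordered from high to low and coloured by role. Calr leads at 753 and 804, the sensing genes lie at 51.3 or below, and Derl3 is last.

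With sgSik3, most chaperones and folding enzymes fell, while 3 of the 4 sensing genes rose. Of 34 members tested, 15 fell (44.1%) and 6 rose (17.6%), where over all 10934 genes tested 23.9% fell and 23.9% rose and 47.8% were called either way (limma, Benjamini-Hochberg adjusted p under 0.05 over all genes). Among the 18 chaperones, disulfide enzymes and lectins, 12 fell and 1 rose, with a median log2 fold change of -0.19. Among the 8 ERAD genes tested, 1 fell and 1 rose, with a median of -0.01, and over all genes the median was -0.000544. The difference between the roles was not tested. Both sgSik3 libraries lay below both sgRosa26 libraries in 18 members (52.9%, against 37.8% of all genes) and above them in 11 (32.4%, against 37.4%).

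Hspa5, the master chaperone of the ER and the brake on the sensors, had 19996 and 19995 in the sgSik3 libraries, against 25566 and 24528 in the sgRosa26 libraries. Hyou1, a nucleotide exchange factor for BiP, had 5898 and 6228 with sgSik3, against 7593 and 7596 with sgRosa26. Both were lower with each guide than in either control, and the fold changes were nearly equal: Hspa5 fell by 0.32 ± 0.03 and Hyou1 by 0.33 ± 0.04 on the log2 scale (adjusted p = 6.2e-05 and 9.4e-05). The BiP-associated factor Sdf2l1 had 2262 and 2280 with sgSik3, against 2853 and 2548 with sgRosa26, a log2 fold change of -0.25 ± 0.05 (adjusted p = 0.00431). Manf (-0.21), Creld2 (-0.24), the co-chaperone Dnajb11 (-0.17) and Hsp90b1 (-0.09) also fell, and Hspa13 (-0.06), Dnajc3 (0.05) and Dnajc10 (0.07) did not pass. Hsp90b1 shares 10.3% of its exonic bases with a pseudogene on the opposite strand, and the library kit does not keep strand.

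Dnajb9 (ERdj4), a BiP co-chaperone known to restrain IRE1 and to be induced through XBP1, went the other way. It had 762 and 760 with sgSik3, against 601 and 590 with sgRosa26, a log2 fold change of 0.35 ± 0.06 (adjusted p = 0.00102). It was the only chaperone of the 11 to rise, and its sgSik3 and sgRosa26 libraries did not overlap.

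Of the disulfide enzymes, Txndc5 moved the most, with 2909 and 3012 in the sgSik3 libraries, against 3944 and 3799 in the sgRosa26 libraries (log2 fold change -0.39 ± 0.04, adjusted p = 4.6e-05). Pdia6 had 8574 and 8514 with sgSik3, against 9989 and 9993 with sgRosa26, and Pdia3, which works with the lectins on glycoproteins, had 15070 and 14651 with sgSik3, against 16390 and 16331 with sgRosa26. Each of these 3 was lower in both sgSik3 libraries, and the log2 fold changes of Pdia6 and Pdia3 were -0.23 ± 0.03 and -0.14 ± 0.03 (adjusted p = 0.00029 and 0.00565). Without sgSik3 guide e3, the adjusted p of Pdia3 was 0.0683. Pdia4 (-0.21) did not pass, and its sgRosa26 libraries lay far apart, at 5843 and 7578, and P4hb (0.02) did not pass. Calreticulin (Calr) had 38450 and 38531 with sgSik3, against 44164 and 47569 with sgRosa26, and calnexin (Canx) had 15200 and 15064 with sgSik3, against 16736 and 16929 with sgRosa26. Both lectins fell, by 0.25 ± 0.04 and 0.15 ± 0.03 on the log2 scale (adjusted p = 0.000887 and 0.00274).

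The sensing arm split with sgSik3. Atf6 had 2731 and 2750 in the sgSik3 libraries, against 3864 and 3703 in the sgRosa26 libraries, and fell by 27.5% (log2 fold change -0.46 ± 0.04, adjusted p = 1.5e-05). Xbp1 had 3909 and 3824 with sgSik3, against 3391 and 3309 with sgRosa26, and rose by 0.21 ± 0.04 (adjusted p = 0.00119). Ern1, the gene of IRE1, had 3740 and 3991 with sgSik3, against 3305 and 3344 with sgRosa26, and rose by 0.22 ± 0.04 (adjusted p = 0.00198). Eif2ak3, the gene of PERK, had 1160 and 1170 with sgSik3, against 1001 and 977 with sgRosa26, and rose by 0.24 ± 0.05 (adjusted p = 0.0033). All 4 separated the sgSik3 and sgRosa26 libraries, Atf6 downwards and the other 3 upwards. Eif2ak3 shares 8.05% of its exonic bases with an opposite-strand model.

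Of the ERAD genes, Edem1 had 19332 and 19954 with sgSik3, against 24837 and 26859 with sgRosa26, and fell by 0.40 ± 0.04 on the log2 scale (adjusted p = 7.4e-05). Edem2, of the same mannosidase-like family, had 1826 and 1843 with sgSik3, against 1617 and 1690 with sgRosa26, and rose by 0.15 ± 0.04 (adjusted p = 0.0171), a call lost without sgRosa26 replicate 1 or either guide, at adjusted p = 0.0502 to 0.105, and with DESeq2 on recovered reads, at 0.118. Edem1 and Edem2 thus moved in opposite directions in the same libraries. Herpud1, a membrane adaptor of the ERAD complex, had 1470 and 1525 with sgSik3, against 1650 and 1485 with sgRosa26, and its groups overlapped (-0.06 ± 0.06, adjusted p = 0.38); it passed as lower, at -0.14, without sgRosa26 replicate 2. Sel1l, Syvn1, Derl1, Derl2 and Edem3, which form or serve the retrotranslocation complex, had log2 fold changes between -0.07 and 0.06 and did not pass.

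Of the remaining 4 members, Sec61a1, the pore subunit of the translocation channel, had 7828 and 8039 with sgSik3, against 8963 and 8909 with sgRosa26 (-0.17 ± 0.03, adjusted p = 0.00189). Wfs1, a membrane protein of ER calcium balance, had 193 and 207 with sgSik3, against 168 and 129 with sgRosa26 (0.44 ± 0.14, adjusted p = 0.0316). Sec61a1 fell and Wfs1 rose, and both were outside the range of the controls. The Wfs1 value was 0.25 without sgRosa26 replicate 2 (adjusted p = 0.14), and leaving out guide e1 or guide e3 also ended the call (adjusted p = 0.093 and 0.174), as did no filter on low values (0.0576) and DESeq2 (0.126). Sec61b (0.01) and Sec24d (0.20) did not pass.

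**Figure D3:**
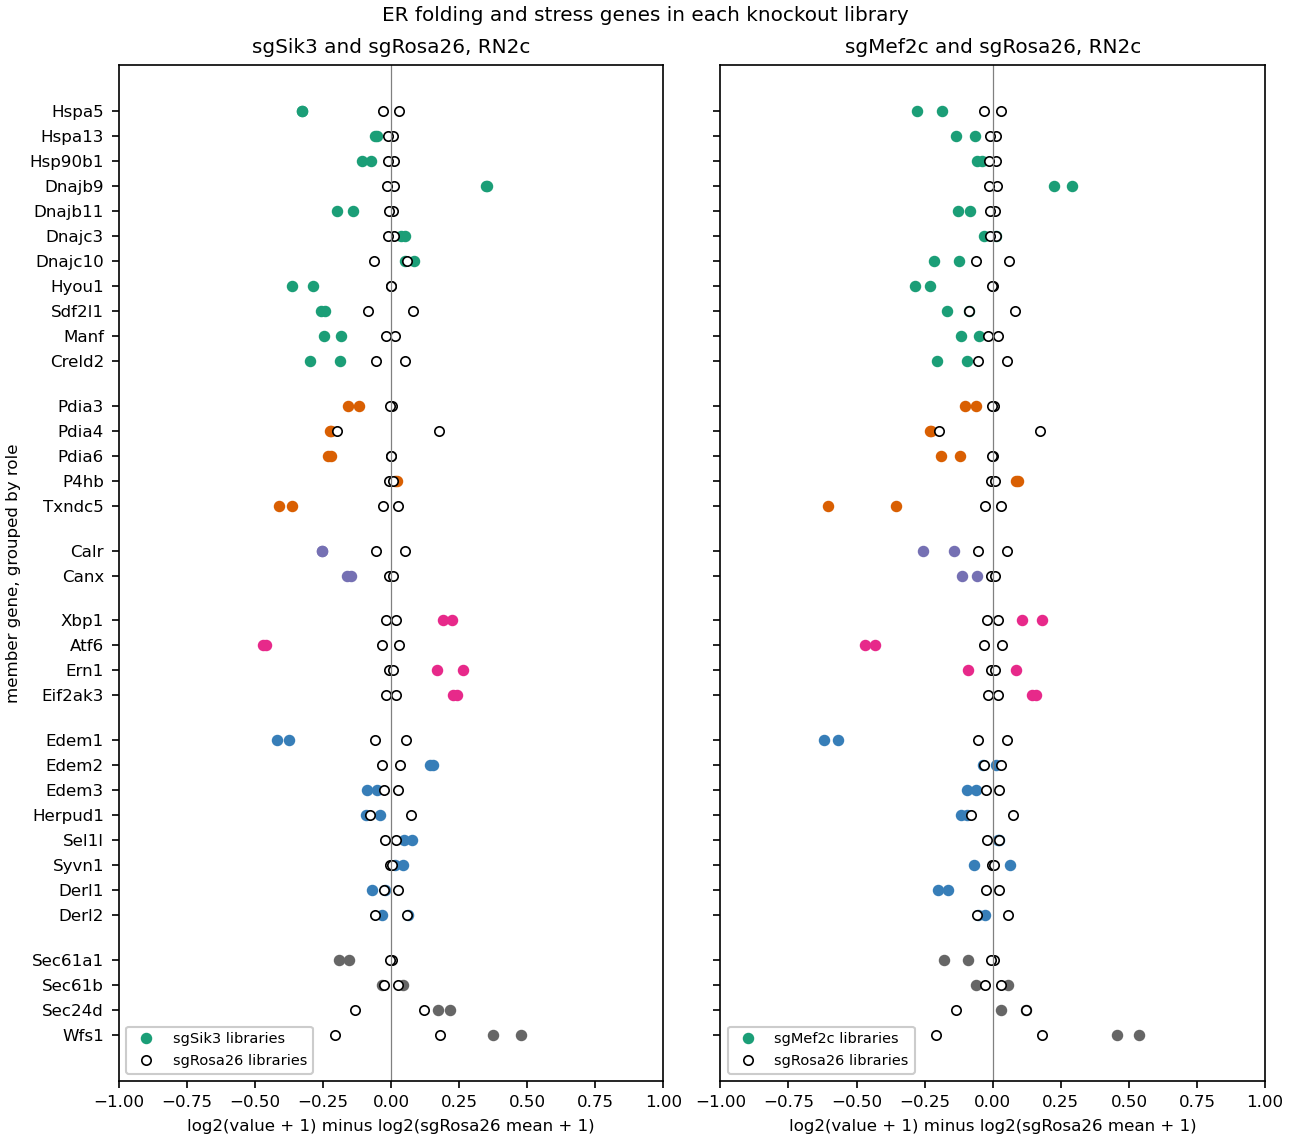
Each tested member in each library, as log2(value + 1) minus the log2 of the sgRosa26 mean, with sgSik3 on the left and sgMef2c on the right; filled points are knockout libraries, open points sgRosa26 libraries, and colours mark roles. Hspa5, Hyou1, Txndc5, Atf6 and Edem1 lie left of both controls in both panels, and Dnajb9, Xbp1 and Wfs1 lie right of them.

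With sgMef2c, 10 members fell (29.4%) and 3 rose (8.82%) of 34 tested, where over all 10956 genes 15.1% fell and 16.3% rose, 31.4% in all. Both sgMef2c libraries lay below both sgRosa26 libraries in 21 members (61.8%, against 35% of all genes) and above them in 5 (14.7%, against 35.5%). Of the 18 folding genes, 6 fell and 1 rose, with a median log2 fold change of -0.12, and of 8 ERAD genes 2 fell, with a median of -0.06; over all genes the median was 0.000156. The count of members called was 13. It was 5 without sgRosa26 replicate 2 and 5 without sgMef2c guide 2, all lower, and 8 without sgRosa26 replicate 1 and 8 with no filter on low values, with 7 lower in each. Hyou1, Txndc5, Atf6 and Edem1 passed in each fit that left out 1 library.

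Hyou1 had 6789 and 6543 in the sgMef2c libraries, against 7982 and 7964 in the sgRosa26 libraries (-0.26 ± 0.04, adjusted p = 0.00325). Hspa5 had 23095 and 21667 with sgMef2c, against 26874 and 25716 with sgRosa26 (-0.23 ± 0.05, adjusted p = 0.0116, and 0.0784 without sgRosa26 replicate 1). Both chaperones were lower with each sgMef2c guide than in either control. Dnajc10, a disulfide reductase with a J domain, fell by 0.17 ± 0.05 at adjusted p = 0.0497, the value nearest the threshold among the members called. Sdf2l1 had 2665 and 2522 with sgMef2c, against 2999 and 2671 with sgRosa26 (-0.13 ± 0.06, adjusted p = 0.168). Dnajb9 had 731 and 766 with sgMef2c, against 632 and 619 with sgRosa26, and rose by 0.26 ± 0.06 (adjusted p = 0.0199); without sgMef2c guide 2 or either sgRosa26 library its adjusted p was between 0.0596 and 0.114.

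Txndc5 differed between the guides, with 3179 with guide 1 and 2669 with guide 2, against 4146 and 3982 with sgRosa26 (-0.48 ± 0.08, adjusted p = 0.00472). Pdia6 had 9658 and 9186 with sgMef2c, against 10500 and 10477 with sgRosa26 (-0.16 ± 0.04, adjusted p = 0.026, and 0.102 to 0.111 without guide 2 or either sgRosa26 library). Calr had 43666 and 40274 with sgMef2c, against 46423 and 49873 with sgRosa26 (-0.20 ± 0.06, adjusted p = 0.0399, and 0.0651 to 0.224 without guide 2 or either sgRosa26 library). All 3 were lower in both sgMef2c libraries, and Canx (-0.08) did not pass.

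Atf6 had 2940 and 2867 with sgMef2c, against 4062 and 3882 with sgRosa26, and fell by 0.45 ± 0.04 on the log2 scale (adjusted p = 0.000697). Xbp1 had 3791 and 3989 with sgMef2c, against 3565 and 3469 with sgRosa26, and rose by 0.15 ± 0.04 (adjusted p = 0.0408, and 0.0931 to 0.181 without guide 2 or either sgRosa26 library). Atf6 was below and Xbp1 above both controls with each guide. Ern1 had 3699 and 3276 with sgMef2c, against 3474 and 3506 with sgRosa26, so the guides lay on either side of the controls (0.00 ± 0.06, adjusted p = 0.97). Eif2ak3 had 1146 and 1159 with sgMef2c, against 1052 and 1025 with sgRosa26, above both controls but not past the test (0.15 ± 0.05, adjusted p = 0.0607).

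Edem1 had 18281 and 17648 with sgMef2c, against 26107 and 28160 with sgRosa26, and fell by 0.59 ± 0.05 on the log2 scale (adjusted p = 0.000551), the largest fitted change of the 34 members in this comparison. Derl1, a channel subunit of ERAD, had 4119 and 4017 with sgMef2c, against 4538 and 4693 with sgRosa26 (-0.18 ± 0.04, adjusted p = 0.0141, and 0.0847 without sgRosa26 replicate 2 and 0.0584 without guide 2). Both were below the controls with each guide, and the other 6 ERAD genes tested had log2 fold changes between -0.11 and 0.02. Among them, Herpud1 had 1539 and 1516 with sgMef2c, against 1734 and 1557 with sgRosa26 (-0.11 ± 0.06, adjusted p = 0.228).

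Wfs1 had 227 and 214 with sgMef2c, against 177 and 135 with sgRosa26 (0.51 ± 0.15, adjusted p = 0.0374, and 0.098 to 0.141 without sgRosa26 replicate 2 or either guide). Sec61a1 had 8803 and 8296 with sgMef2c, against 9421 and 9341 with sgRosa26 (-0.13 ± 0.04, adjusted p = 0.0487, and 0.146 to 0.196 without guide 2 or either sgRosa26 library). Both kept their side of the controls in each library, and edgeR gave an adjusted p of 0.0554 for Sec61a1. With DESeq2 on recovered reads no member rose, and 9 fell. With no filter on low values, Calr, Xbp1, Wfs1 and Sec61a1 were among the calls lost (adjusted p = 0.0538 to 0.065).

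Set against each other in 1 fit of all mouse libraries, the knockouts differed in 3 members, each lower with sgMef2c than with sgSik3. Over 10932 genes, 518 (4.74%) were lower and 457 higher. Dnajc10 differed by -0.24 ± 0.04 on the log2 scale, Ern1 by -0.22 ± 0.06 and Edem1 by -0.20 ± 0.04 (limma, adjusted p = 0.00543, 0.0442 and 0.00973). These calls were lost without sgSik3 guide e1 (adjusted p = 0.0508 to 0.109) and without guide e3 (adjusted p = 0.0501 to 0.32), and only that of Dnajc10 passed without sgMef2c guide 2. Ern1 was also lost with no filter on low values (adjusted p = 0.115).

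The 2 h inhibitor treatment of RN2 called 1 member. Of 34 members, 1 fell (2.94%), where 0.28% of 10732 genes fell and 0.317% were called in either direction. Edem1 had 12338 and 12132 in the YKL-05-099 libraries, against 14341 and 14278 in the DMSO libraries, and fell by 14.5% (log2 fold change -0.23 ± 0.03, limma, adjusted p = 0.0135). Both treated libraries were below both controls. The call was lost without YKL-05-099 replicate 2 and with no filter on low values (limma, adjusted p = 0.297). Over the 10 alternatives, the log2 fold change of Edem1 lay between -0.238 and -0.214.

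Atf6 came next in this comparison, with 3091 and 3146 in the YKL-05-099 libraries, against 3524 and 3645 in the DMSO libraries (-0.20 ± 0.04, adjusted p = 0.121, and 0.0146 and 0.0461 without DMSO replicate 1 or 2). Hyou1 had 5895 and 5778 with YKL-05-099, against 6361 and 6316 with DMSO (-0.12 ± 0.04, adjusted p = 0.346). Hspa5 had 19042 and 19015 with YKL-05-099, against 20635 and 19722 with DMSO (-0.08 ± 0.03, adjusted p = 0.557, and 0.0473 without DMSO replicate 2). The treated and control libraries of these 3 genes did not overlap, and none of the 3 was called in the comparison as tested. With a replicate block, which the labels do not call for, all 3 passed (limma, adjusted p = 1.84e-06 for Atf6, 0.00223 for Hyou1 and 0.00278 for Hspa5). Over all genes, that fit called 499, against 34 without the block. Of 34 members, 12 lay below both DMSO libraries in both treated libraries (35.3%, against 18.7% of all genes) and 1, Dnajc10, lay above (2.94%, against 18.1% of all genes).

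The 3 other genes of the sensing arm did not pass in RN2. Xbp1 had 2331 and 2319 with YKL-05-099, against 2319 and 2534 with DMSO (-0.06 ± 0.05, adjusted p = 0.88). Ern1 had 2138 and 1906 with YKL-05-099, against 2045 and 2076 with DMSO (-0.03 ± 0.06, adjusted p = 0.942). Eif2ak3 had 776 and 729 with YKL-05-099, against 768 and 752 with DMSO (-0.02 ± 0.07, adjusted p = 0.973). The libraries of all 3 overlapped between the treatments.

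Dnajb9 had 395 and 324 with YKL-05-099, against 416 and 339 with DMSO (-0.07 ± 0.12, adjusted p = 0.938), and its first library was the higher one under both treatments. Sdf2l1 had 1985 and 2102 with YKL-05-099, against 2054 and 2195 with DMSO (-0.06 ± 0.05, adjusted p = 0.899). Herpud1 had 1631 and 1755 with YKL-05-099, against 1506 and 1782 with DMSO (0.05 ± 0.08, adjusted p = 0.936). These 3 genes overlapped between treatments too. Calr had 35844 and 35394 with YKL-05-099, against 36605 and 36828 with DMSO (-0.04 ± 0.03, adjusted p = 0.779), and Sec61a1 had 6718 and 6685 with YKL-05-099, against 7008 and 7015 with DMSO (-0.07 ± 0.03, adjusted p = 0.739). Pdia4 had 4024 and 3703 with YKL-05-099, against 4040 and 3870 with DMSO (-0.03 ± 0.05, adjusted p = 0.925). Calr and Sec61a1 were below both controls and Pdia4 was not.

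In MOLM-13, 0 of 35 members were called, as were 0 of 11361 genes (0%) by limma, with 0 members and 144 genes (1.27%) at an unadjusted p under 0.05. Over all genes edgeR called 0 and DESeq2 called 7, and neither called a member. With a replicate block, which the labels do not call for, limma called 290 genes and 0 members. All 35 members overlapped between the treatments, against 10.7% of genes with both treated libraries above and 10.5% with both below the controls. The libraries differed more by replicate number than by treatment for several members. XBP1 had 3970 and 6423 with YKL-05-099, against 4089 and 6362 with DMSO (-0.01 ± 0.27, adjusted p = 1). HSPA5 had 15327 and 18369 with YKL-05-099, against 14848 and 19172 with DMSO (-0.01 ± 0.14, adjusted p = 1). In both genes the second library was the higher one under each treatment, by a mean of 0.67 on the log2 scale for XBP1 and 0.32 for HSPA5. MANF and CRELD2 were also higher in the second libraries, by 0.60 and 0.39, and DNAJC3 and ERN1 were lower, by -0.35 and -0.38.

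The other MOLM-13 values were as narrow or as wide apart within groups as between them. SDF2L1 had 1013 and 1321 with YKL-05-099, against 1058 and 1345 with DMSO (-0.04 ± 0.17). DNAJB9 had 195 and 186 with YKL-05-099, against 187 and 253 with DMSO (-0.19 ± 0.18). HERPUD1 had 1250 and 1337 with YKL-05-099, against 1093 and 1275 with DMSO (0.13 ± 0.11). The second DMSO library was the high one for DNAJB9, and the first DMSO library the low one for HERPUD1. ATF6 had 1930 and 1691 with YKL-05-099, against 1830 and 1624 with DMSO (0.07 ± 0.11). ERN1 had 160 and 143 with YKL-05-099, against 232 and 152 with DMSO (-0.31 ± 0.22), and EIF2AK3 had 446 and 383 with YKL-05-099, against 476 and 382 with DMSO (-0.05 ± 0.15). For ERN1 the first DMSO library stood above the other 3, and the spread of these sensing genes covered their differences. The members of lowest p in the other roles were SYVN1, the ERAD ubiquitin ligase, with 754 and 885 with YKL-05-099, against 878 and 935 with DMSO, and PDIA6, with 6180 and 6375 with YKL-05-099, against 5636 and 6325 with DMSO. CANX had 20000 and 17125 with YKL-05-099, against 18630 and 17266 with DMSO, and WFS1 had 32.4 and 42.0 with YKL-05-099, against 40.9 and 47.0 with DMSO. None of these 4 separated the treatments, and each had an adjusted p of 1. The inhibitor dose was lower in MOLM-13 (250 nM) than in RN2 (350 nM), so their values stand side by side and were not tested against each other.

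**Figure D4:**
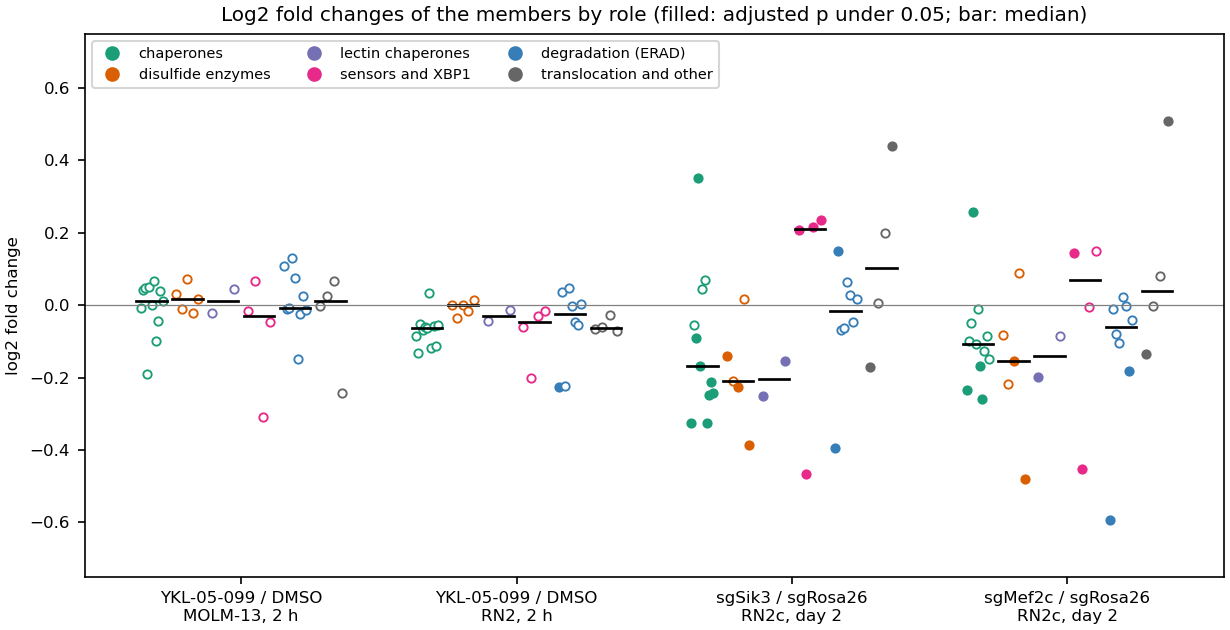
Log2 fold changes of the tested members by role in the 4 comparisons; filled points passed the test at adjusted p under 0.05 and bars are medians of a role. The folding roles lie below 0 with sgSik3 and sgMef2c apart from Dnajb9 and a few others, and most points of both inhibitor comparisons lie within 0.2 of 0.

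The inhibitor and the knockouts were then set against each other in RN2, as differences of log2 fold changes in 1 fit of the 10 mouse libraries. The inhibitor response minus the sgSik3 response passed the test in 9 of 34 members, with 6 higher and 3 lower, where over 10932 genes 12.1% were higher and 12.2% lower. The inhibitor response lay above the sgSik3 response for Txndc5 (0.40 ± 0.09), Atf6 (0.26 ± 0.06) and Hspa5 (0.24 ± 0.06). It also lay above for Pdia6 (0.23 ± 0.05), Calr (0.21 ± 0.06) and Hyou1 (0.20 ± 0.05). All 6 fell with sgSik3. With the inhibitor itself, the log2 fold changes of Atf6, Hspa5, Hyou1 and Calr were -0.20, -0.08, -0.12 and -0.04, so these 4 were not raised by it. The inhibitor response lay below the sgSik3 response for Dnajb9 (-0.42 ± 0.14), Xbp1 (-0.27 ± 0.07) and Eif2ak3 (-0.25 ± 0.08). These 3 rose with sgSik3. The same sgSik3 and sgRosa26 libraries enter these 9 differences and the sgSik3 comparison. Adjusted p-values of these 9 lay between 0.00474 and 0.0482. Without sgSik3 guide e1 the count was 4, all higher: Dnajb9, Xbp1, Eif2ak3, Calr and Hyou1 did not pass (adjusted p = 0.0528 to 0.123). The Calr difference was lost in 8 of 11 alternatives (adjusted p = 0.0614 to 0.117), namely no filter on low values and leaving out any 1 library other than sgRosa26 replicate 1. The Dnajb9 difference was lost in 7 of 11 (adjusted p = 0.0854 to 0.194), with no filter and without DMSO replicate 1, YKL-05-099 replicate 2, either sgRosa26 library or either guide. That of Eif2ak3 was lost in 5 (adjusted p = 0.0534 to 0.105), without DMSO replicate 1, YKL-05-099 replicate 2, sgRosa26 replicate 2 or either guide, and that of Hyou1 also without YKL-05-099 replicate 1 (adjusted p = 0.0537). The inhibitor response minus the sgMef2c response passed in 4 of 34 members, all higher. Over 10932 genes, 835 (7.64%) were higher and 976 lower. The 4 members were Txndc5 (0.49 ± 0.09), Edem1 (0.37 ± 0.06), Atf6 (0.25 ± 0.06) and Dnajc10 (0.20 ± 0.06). Their adjusted p-values lay between 0.000865 and 0.0404. The Dnajc10 difference was lost in 7 of 11 alternatives (adjusted p = 0.0785 to 0.159), with no filter and without either DMSO library, either YKL-05-099 library, sgRosa26 replicate 2 or sgMef2c guide 2. The count was 3 to 8 over the left-out libraries, with 8 without sgMef2c guide 1.

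Edem1 was lower in all 3 mouse comparisons, by 0.23 with YKL-05-099, 0.40 with sgSik3 and 0.59 with sgMef2c on the log2 scale, and its inhibitor response was not called different from that of sgSik3 (limma, adjusted p = 0.0504). In MOLM-13, EDEM1 was not lower, with 2928 and 2384 with YKL-05-099, against 2692 and 2232 with DMSO. Its log2 fold change there was 0.11 ± 0.14, the treatments overlapped, and it was not called. Treatment time, cell line derivative and infection differ together between the inhibitor and the knockout libraries and cannot be told apart.

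**Figure D5:**
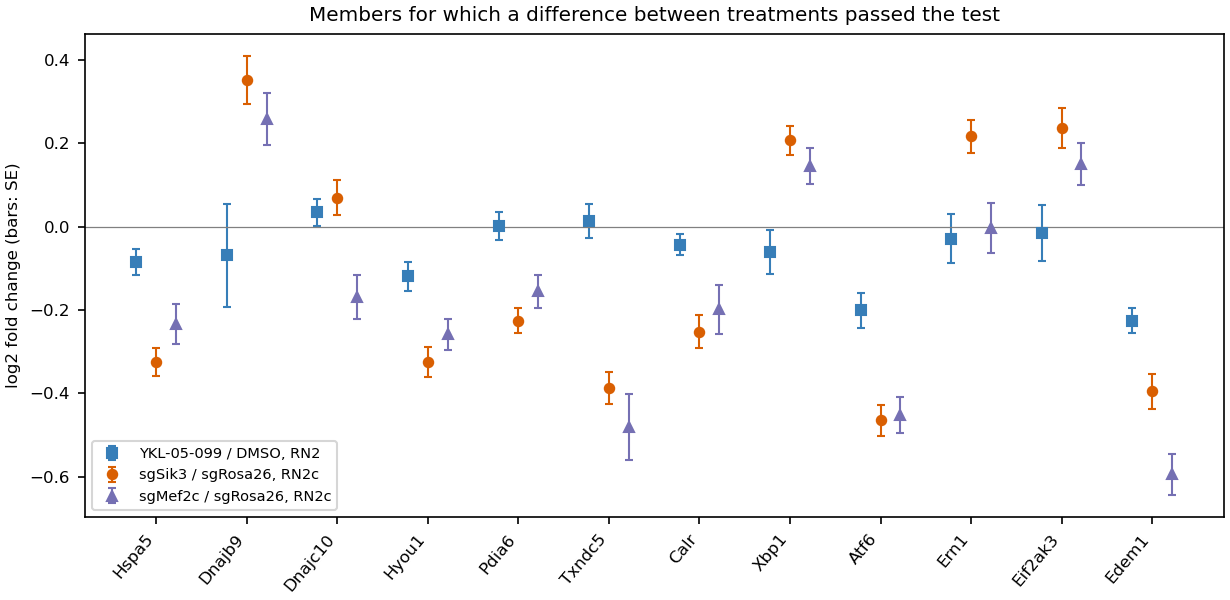
Log2 fold change with its SE for the 12 members in which a difference between treatments passed the test, with YKL-05-099 over DMSO in RN2 (squares), sgSik3 over sgRosa26 (circles) and sgMef2c over sgRosa26 (triangles). Edem1 and Atf6 lie below 0 in all 3, whereas Txndc5 and Pdia6 lie near 0 under the inhibitor and below 0 in both knockouts.

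Promoter letters and responses were put side by side. Of 8 tested members with an exact ERSE, 6 fell with sgSik3 (log2 fold changes from -0.32 to 0.05, median -0.19), and 3 fell with sgMef2c (from -0.23 to 0.00, median -0.12), where 23.9% and 15.1% of all genes tested were lower. Of 20 tested members with a matched promoter and no exact ERSE, 5 fell and 6 rose with sgSik3 (median 0.02), and 3 fell and 3 rose with sgMef2c (median -0.03). The difference between members with and without the element was not tested. All tested carriers except Syvn1 are folding genes, so element and role cannot be told apart here. Of the folding genes with a matched promoter and no exact ERSE, Dnajb11, Sdf2l1, Pdia3 and Txndc5 fell with sgSik3. Dnajb9 rose, and Dnajc10, Pdia4 and P4hb did not pass. The promoters were chosen for display with the falls known, so these counts are not separate support. Among the ERSE carriers, Hspa5, whose site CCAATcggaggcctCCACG is shown above, fell by 0.32, and Dnajc3 and Syvn1, which carry the same fixed letters, did not pass. With YKL-05-099 in RN2 the 8 carriers had log2 fold changes from -0.08 to 0.00 (median -0.05).

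The other genes of the pathway were counted in 5 lists. Of 17 further folding enzymes and chaperones tested, 5 fell and 3 rose with sgSik3, and 3 fell and 2 rose with sgMef2c, against backgrounds of 23.9% each way and of 15.1% lower and 16.3% higher. Pdia5 fell by 0.66 and Mogs, the first glucosidase of glycan trimming, by 0.47 on the log2 scale with sgSik3, and Erp29 fell with sgSik3 (-0.32) and sgMef2c (-0.21). Ero1l, the oxidase that recharges the disulfide enzymes, and Txndc12 rose with sgMef2c (0.20 and 0.26). Of 19 further genes of translocation and glycan transfer, 7 fell and 2 rose with sgSik3, and 3 fell and 2 rose with sgMef2c. Rpn1, a subunit of the oligosaccharyltransferase, had 14669 and 14337 with sgSik3, against 19116 and 21763 with sgRosa26, a log2 fold change of -0.49 ± 0.05, and with sgMef2c its log2 fold change was -0.46 ± 0.07. Sec62 rose with sgSik3 (0.25) and the catalytic subunit Stt3b with sgMef2c (0.25). Of 16 further ERAD genes, 2 fell and 4 rose with sgSik3, and 2 fell and 1 rose with sgMef2c. The extraction ATPase Vcp fell in both (-0.19 and -0.17), and the ubiquitin-conjugating enzyme Ube2g2 rose in both (0.22 and 0.30).

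Among 7 genes downstream of PERK, Atf3 fell with sgSik3 and with sgMef2c. It had 6.81 and 18.6 with sgSik3, against 35.7 and 42.9 with sgRosa26, and 22.4 and 16.2 with sgMef2c, against 37.6 and 45.0 with sgRosa26 (log2 fold changes -1.70 ± 0.42 and -1.07 ± 0.27, adjusted p = 0.00887 and 0.0229). The stress factor Ddit3 (CHOP) had 207 and 199 with sgMef2c, against 259 and 253 with sgRosa26, and fell by 0.33 ± 0.10 (adjusted p = 0.036). Ddit3 was not called with sgSik3, and the Atf3 values were low, at 45.0 or below in these libraries. Of the 7 genes, 1 fell and 1 rose with sgSik3, where 23.9% of all genes went each way. With sgMef2c 2 fell and 0 rose, where 15.1% of all genes fell and 16.3% rose. Ppp1r15b, a phosphatase subunit that reverses PERK signalling, rose with sgSik3 (0.14), and Atf4 (-0.12) did not pass there. Of 5 further factors of the response, Atf6b (-0.15) and the protease gene Mbtps2 (-0.19), which takes part in cutting ATF6, fell with sgSik3, and the lowest adjusted p of the 5 with sgMef2c was 0.115. Over the 5 lists, the lowest adjusted p with YKL-05-099 was 0.626 in RN2, for the ERAD gene Vimp, and 1 in MOLM-13.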

How the data were processed

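Total RNA was polyA-selected and sequenced from TruSeq v2 libraries, per the labels' protocols; that kit does not keep strand. The submitters' processing notes name HISAT2, featureCounts, DESeq2, hg19 and mm10, without versions. What the authors deposited were 4 tables of normalized values, each a signal on a linear scale: a read count divided by its library's size factor. Tables were normalized separately by the authors, and levels set across them are given side by side only. Whole reads were recovered for 100% of values (within 1e-06 reads), with 13961461 to 24275290 reads per library. Their number limits precision.

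Genes averaging 10 or more in a table entered a two-sided limma 3.58.1 test (R 4.3.3, trended variance) of log2(value + 1), which understates the change of low genes, with Benjamini-Hochberg adjustment over all genes and a threshold of 0.05. Errors are standard errors (SE), n = 2 libraries per group. Differences between treatments were contrasts in 1 limma fit of the 10 mouse libraries, with each sgRosa26 library used once and recovered reads scaled by median-of-ratios factors. edgeR 4.0.16 (quasi-likelihood) and DESeq2 1.42.0 on recovered reads, TMM scaling, a pseudocount of 5, no filter, left-out libraries and a replicate block were alternatives. The fits were also run on simulated data with the same dispersion for every gene and no effect of replicate number. That setting is simpler than these libraries, so the run is no support for the calls. The labels do not say whether libraries are separate cultures; p-values reflect library spread alone, possibly technical. Replicates differed beyond sampling noise (chi-square over degrees of freedom 1.71 to 14.4).

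Members and lists were chosen with earlier results of these data known. Values are given for Hspa5, Dnajb9, Herpud1, Sdf2l1, Xbp1, Atf6, Ern1 and Eif2ak3 throughout, for up to 3 called members per role and comparison, and otherwise for the member of lowest p. Up to 3 genes of lowest p are named per related list. Dnajc10, Atf4, Ero1l and members given only by a fold change were named after their values were seen. Exon lengths and overlaps come from GENCODE M21 (GRCm38). The summed value of the erythroid marker list is not reported here.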

Additional observations from a re-analysis of the deposited data

How the results depend on the processing

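Leaving out each library in turn gave counts of members called of 0 in MOLM-13, 0 to 4 in RN2, 15 to 22 with sgSik3, 5 to 12 with sgMef2c, 4 to 11 for the inhibitor minus sgSik3, 3 to 8 for the inhibitor minus sgMef2c and 0 to 4 for sgMef2c against sgSik3. In every comparison, the number called over all genes changed in these fits too, so the shifts are not particular to the members. The cause was not tested. Such fits leave 1 library in a group, which is assumed to vary like the other group. With no filter on low values, where more genes are tested, 0 members were called in RN2 and 8 with sgMef2c. Every other alternative (pseudocount of 5, edgeR, DESeq2, TMM scaling) kept each count of members within 1.5 times that reported. Over all genes, edgeR on recovered reads called 30 in RN2, 5229 with sgSik3 and 3425 with sgMef2c, DESeq2 called 35, 3532 and 2255 in the same order, and limma called 34, 5226 and 3442. The replicate block called 6 members in RN2, all lower and among them Edem1, Atf6, Hyou1 and Hspa5, 14 with sgMef2c and 0 in MOLM-13. Over all genes, the block called 499 in RN2, 3905 with sgMef2c and 290 in MOLM-13, against 34, 3442 and 0 without it. Deviations of same-numbered libraries correlated at 0.525 in MOLM-13, 0.216 in RN2 and 0.0514 with sgMef2c, a hint from the data only; no pairing follows from the labels, and sgSik3 carries guide names, so no block was fitted there.

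Signs were followed for the members chosen for per-library values and for those called in a difference between treatments. Among these, signs changed only in members that were not called. Other called members, such as Hsp90b1 with sgSik3 and Dnajc10 with sgMef2c, were not followed. Over the left-out libraries, log2 fold changes in MOLM-13 ranged from -0.203 to 0.112 for EIF2AK3, -0.011 to 0.155 for PDIA6, -0.192 to 0.176 for HSPA5, -0.409 to 0.029 for DNAJB9, -0.236 to 0.148 for SDF2L1, -0.362 to 0.332 for XBP1, -0.028 to 0.163 for ATF6 and -0.067 to 0.157 for CANX. In RN2 they ranged from -0.215 to 0.078 for Dnajb9, -0.075 to 0.168 for Herpud1, -0.124 to 0.003 for Xbp1, -0.112 to 0.053 for Ern1, -0.06 to 0.029 for Eif2ak3 and -0.095 to 0.025 for Pdia4. They ranged from -0.14 to 0.012 for Herpud1 with sgSik3 and from -0.091 to 0.084 for Ern1 with sgMef2c. With 2 libraries per group, a member that did not pass is not shown to be unaffected.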
